A study of Homo sapiens with 2 samples.

Results

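The NDRG family has 4 genes, NDRG1, NDRG2, NDRG3 and NDRG4, and was measured here in DLD-1 cells before and after wild-type p53 was switched on. Its members are every probe set that the platform annotation assigns to a single one of these genes. This gave 8 of the 41091 probe sets with 1 gene symbol, and 4 of 19775 genes. NDRG1 had 1 of them, NDRG2 and NDRG3 had 3 each, and NDRG4 had 1. No probe set named a member together with another gene. The family was chosen by its ratios of p53 on to p53 off, so these ratios describe the 2 arrays and are not tests.

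DLD-1 is an established line from a human colorectal carcinoma. The cells of both arrays were stably transfected with wild-type p53 under tet-off control, in which tetracycline keeps the transgene silent. The p53 off cells were grown with tetracycline, and the p53 on cells had been without it for 9 h. Each condition is a single array of total RNA, so no error, test or p-value can be given. The effects of p53, of tetracycline removal and of any other difference between the cultures cannot be told apart.

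NDRG proteins have an alpha/beta hydrolase fold but lack the catalytic residues of the enzymes that share it. The family is named after repression by N-MYC. NDRG1 is known as a gene induced by hypoxia, iron depletion, differentiation and p53, and its protein is a substrate of the kinases SGK1 and GSK3. NDRG2 is best known from brain and muscle and is often silenced in colorectal tumours. NDRG3 is known as a lactate-binding protein that accumulates at low oxygen, and NDRG4 as a gene of brain and heart whose methylated promoter serves as a marker of colorectal cancer.

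The values are MAS5 signals, which are linear intensities. Low signals were raised to a floor of 112.4, the median over both arrays of all signals that were not controls. With 1 signal under the floor a ratio is a bound, written "at least", and with both under it there is none. Of the 8 NDRG probe sets, 6 reached the floor on at least 1 array and 4 on both. NDRG1 and NDRG3 were measured on both arrays. NDRG2 and NDRG4 reached the floor with p53 off but not with p53 on. Signals of different probe sets depend on their probes, so the levels of the 4 genes cannot be ordered against each other.

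The NDRG1 signal was 661 with p53 off against 30535 with p53 on. It was 46.2-fold higher with p53 on, a log2 ratio of 5.53. Both signals were far above the floor, at 5.88 and 272 times its value. This ratio was the 5th largest of 13915 measured genes, with every gene taken at its brightest probe set, and the 3rd largest of the 10737 genes with both signals at or above the floor. NDRG1 is read by the single probe set 200632_s_at, so there is no further probe set to set beside it. The ending _s_at marks a probe set for shared sequence, and all 8 NDRG probe sets carry it. At least 16-fold higher were 57 genes (0.410% of measured genes), NDRG1 among them. Of these 57, 15 had a single measured probe set, as had 52.0% of all measured genes.

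**Figure D1:**
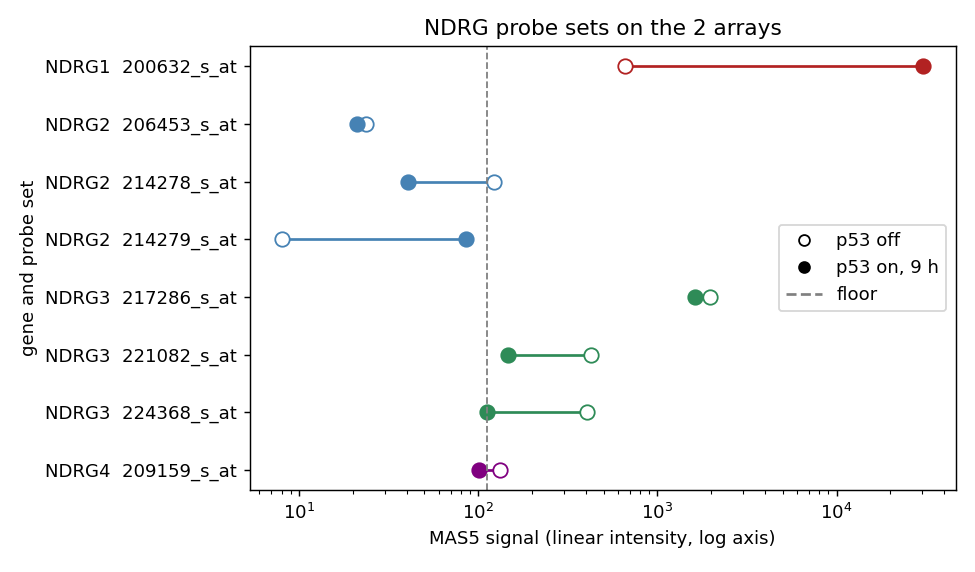
MAS5 signal of each NDRG probe set on a log axis, with open circles for p53 off, filled circles for p53 on at 9 h and a dashed line at the floor of 112.4. NDRG1 moves from 661 to 30535, the 3 NDRG3 probe sets are lower with p53 on, and the NDRG2 and NDRG4 probe sets lie near or under the floor.

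NDRG3 was lower with p53 on at each of its 3 probe sets, by amounts that differed. Its brightest probe set, 217286_s_at, read 1963 with p53 off against 1623 with p53 on and was 1.21-fold lower. Probe set 221082_s_at had signals of 425 and 147 and was 2.89-fold lower. Probe set 224368_s_at had signals of 403 and 112.40, the second of them just above the floor of 112.37, and was 3.59-fold lower. The log2 ratios were -0.27, -1.53 and -1.84, with a mean of -1.22 and an SD over probe sets of 0.83. The brightest probe set thus gives NDRG3 a ratio inside 1.5-fold, while the other 2 are past 2-fold.

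NDRG3 probe sets disagreed more than those of most genes on these arrays. The log2 ratios of NDRG3 spanned 1.57, against a median span of 0.98 over the 1777 genes with exactly 3 measured probe sets. The span was smaller than that of NDRG3 in 80.1% of these genes. Over the 1292 genes with exactly 3 probe sets above the floor on both arrays, the median span was 0.88, and 85.4% of spans were smaller than that of NDRG3. The shared sign of NDRG3 is common, since 29.2% of the genes with 3 measured probe sets were lower on all 3 and 24.0% higher on all 3. Probe sets of a gene read the same 2 RNA samples and are not replicates.

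**Figure D2:**
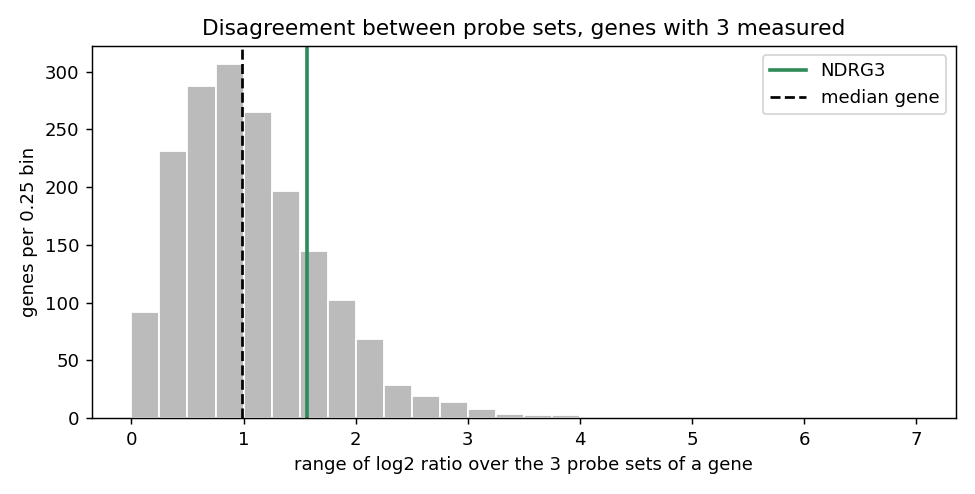
Span of the log2 ratio over the 3 probe sets of a gene, for the 1777 genes with exactly 3 measured probe sets, as genes per bin of 0.25. The green line marks NDRG3 at 1.57 and the dashed line the median gene at 0.98.

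NDRG2 stayed near or under the floor. Its brightest probe set, 214278_s_at, had a signal of 122 with p53 off and of 40.3 with p53 on, so it was at least 1.09-fold lower. Probe set 206453_s_at had signals of 23.6 and 21.0, and probe set 214279_s_at of 7.98 and 85.8. Both of these lay under the floor on both arrays and have no ratio. The raw signals of the 3 NDRG2 probe sets did not run the same way, since 214279_s_at was brighter with p53 on and the other 2 were dimmer.

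NDRG4 was also close to the floor. Its probe set, 209159_s_at, had a signal of 133 with p53 off and of 101 with p53 on, so it was at least 1.18-fold lower. The log2 bounds were -0.12 for NDRG2 and -0.24 for NDRG4, and as bounds they do not limit how much lower the signals were. For scale, the log2 ratio of a gene's dimmer measured probe sets lay a median of 0.56 from that of the brightest, which corresponds to an SD of 0.84.

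Among the 4 NDRG genes, taken at their brightest probe sets, NDRG1 was past 2-fold higher and 0 were past 2-fold lower. The background was 15.3% of measured genes higher and 13.5% lower by that size. Among the 6 measured NDRG probe sets, 1 was past 2-fold higher and 2 were past 2-fold lower, beside 14.0% and 13.0% of all 25962 measured probe sets. These counts restate the ratios by which the family was chosen. The ratio of NDRG3 was exceeded by 62.1% of genes. NDRG1 was thus far above NDRG3 in ratio, while the bounds of NDRG2 and NDRG4 give no place among the genes below them.

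**Figure D3:**
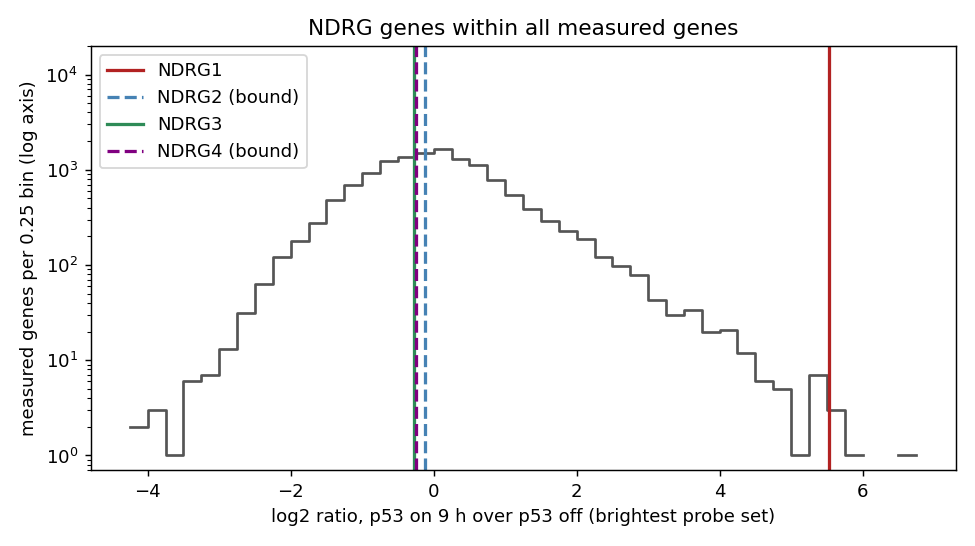
Number of measured genes, on a log axis, in bins of 0.25 of the log2 ratio of p53 on over p53 off, with lines at the 4 NDRG genes, dashed where the ratio is a bound. NDRG1 lies at 5.53 in the sparse upper tail, NDRG3 at -0.27 lies near the centre, and the bounds of NDRG2 and NDRG4 are at -0.12 and -0.24, with their ratios at or to the left of these lines.

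Directions are relative to the median gene, whose log2 ratio was 0.0035. The 18 hybridization spike-in probe sets, for RNA that the standard procedure adds to each hybridization mix, gave a median ratio of 1.89 between the p53 on and p53 off arrays. After scaling to these controls, NDRG1 was 24.4-fold higher and NDRG3 2.29-fold lower. That scaling moved the median of all genes to -0.80, with 830 genes past 2-fold higher and 5868 past 2-fold lower, instead of 2126 and 1880. Relative to that median NDRG1 stood at 5.41 and NDRG3 at -0.40. The bounds of NDRG2 and NDRG4 then lay at 0.21 and 0.089 relative to it, so as upper limits they give these genes no side of the median.

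The arrays also differed in how evenly transcripts were read. For beta-actin the ratio of 3' to 5' control signal was 1.37 with p53 off but 7.29 with p53 on, and for GAPDH it was 0.97 and 1.77. Where the NDRG probe sets lie along their transcripts is not known here. The part of this difference in the NDRG ratios was not tested.

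**Figure D4:**
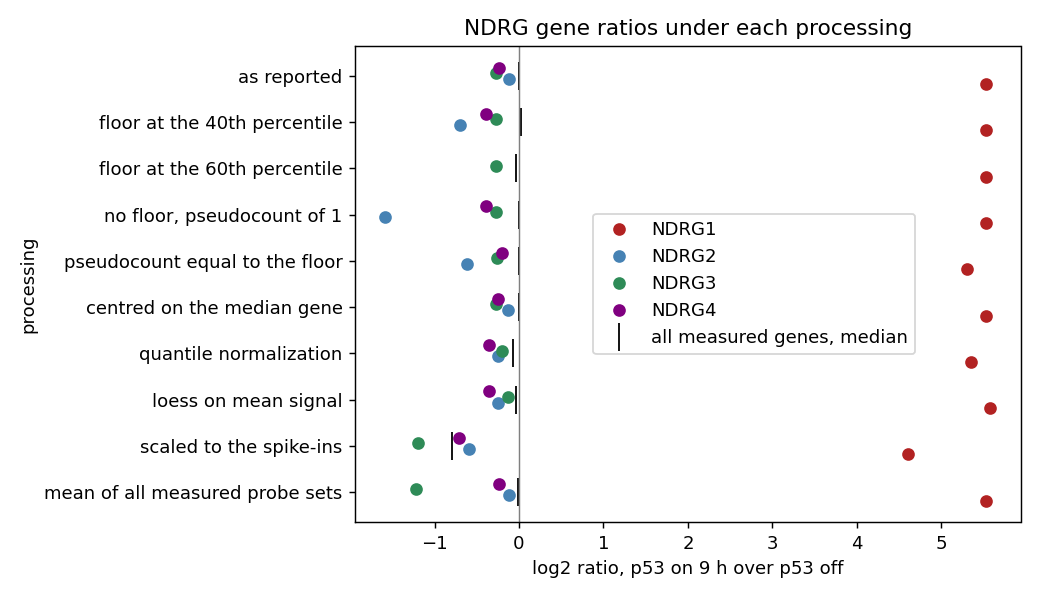
Log2 ratio of p53 on over p53 off for each NDRG gene under each processing, with black ticks at the median of all measured genes. NDRG1 stays between 4.61 and 5.58, NDRG3 runs from -1.22 to -0.13, and NDRG2 and NDRG4 have no point with the floor at the 60th percentile because both signals lie under it.

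Markers of the labelled origin were present. Of 11 colon epithelium markers, 9 were above the floor on both arrays, and KRT20 and CDX1 were under it on both. The summed signal of these markers was 112034 with p53 off and 178723 with p53 on. Leukocyte markers reached the floor in 0 of 6 cases with p53 off and 2 of 6 with p53 on, at sums of 315 and 722, and PTPRC, the gene of CD45, was under it on both. Fibroblast markers reached it on both arrays in 1 of 8 cases, at sums of 609 and 985, and endothelial markers in 1 of 6, at sums of 392 and 688. Neuron and glia markers, of interest because NDRG2 and NDRG4 are brain genes, did so in 3 of 8 cases, at sums of 14718 and 14536, of which TUBB3, a neuronal tubulin gene, made up 13784 and 13158, with GFAP, RBFOX3 and SYT1 under it on both. The part of these sums in the NDRG ratios was not tested.

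The genes around the NDRG family were read from 5 lists, with 1.5-fold as the size that counts. The lists were chosen with earlier results of these data known, so their counts and medians are descriptions and not tests. The background at that size was 25.9% of measured genes higher and 25.9% lower, and under spike-in scaling it was 9.55% and 58.7%.

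Of the transcription regulators of NDRG genes, 5 of 16 measured members were higher by that size and 4 were lower. Their median log2 ratio was -0.075. Under spike-in scaling 1 of 15 was higher and 10 were lower, with a median of -0.98. MYC, a relative of N-MYC that also represses NDRG1, read 5388 with p53 off against 1649 with p53 on and was 3.27-fold lower on its single measured probe set. MYCN, the gene of N-MYC, had signals of 161 and 78.6 and was at least 1.43-fold lower. EGR1, an immediate early factor reported to bind the NDRG1 promoter, had signals of 3444 and 22793 and was 6.62-fold higher.

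EPAS1, the gene of the hypoxia factor HIF-2 alpha, had signals of 1539 and 4249 and was 2.76-fold higher. HIF1A had signals of 9605 and 16484 and was 1.72-fold higher. That is less than the median spike-in ratio of 1.89, so HIF1A was not higher relative to the spike-ins. HIF1A and MYCN are named after their values were seen. EGLN1, the prolyl hydroxylase that marks HIF for destruction and also acts on NDRG3 protein, was 2.46-fold higher at 3026 and 7433. The 4 measured probe sets of EGLN1 ran from -0.39 to 1.78 on the log2 scale, so they did not share a direction.

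Genes induced by hypoxia through HIF, as NDRG1 is, were mostly higher relative to the median gene, in a list chosen with earlier results known. Of 23 measured members, 16 (69.6%) were higher by at least 1.5-fold and 1 (4.35%), P4HA1, was lower. The median log2 ratio was 0.86. Under spike-in scaling 9 of 24 members (37.5%) were higher and 6 lower, and the median turned to -0.11, where that of all genes was -0.80. ADM, a vasodilator peptide gene, had signals of 1009 and 16563 and was 16.4-fold higher. DDIT4, an mTORC1 inhibitor and also a p53 target, had signals of 441 and 7064 and was 16.02-fold higher. ANGPTL4, a secreted regulator of lipoprotein lipase, and PFKFB3, a regulator of glycolysis, were 7.41-fold and 7.38-fold higher. NDRG1 had a larger ratio than any measured gene of this list, but its family was chosen by this ratio, so that is a description only. VEGFA, a classic HIF target named after its values were seen, had a log2 ratio of -0.17 on its brightest probe set, at 2171 and 1933. Its 4 measured probe sets ran from -0.21 to 0.43, so they did not share a direction.

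**Figure D5:**
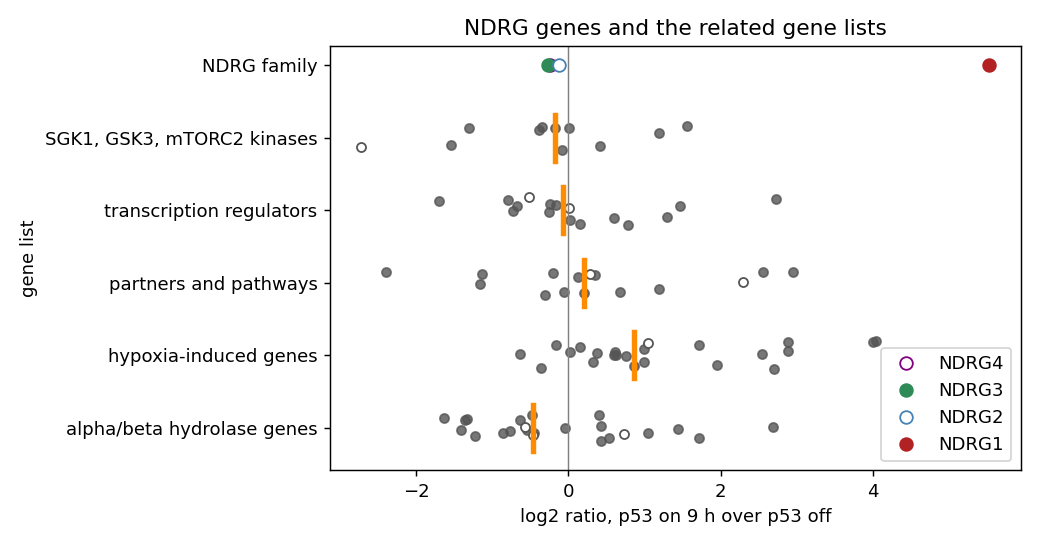
Log2 ratio of p53 on over p53 off for the 4 NDRG genes and for each measured gene of the 5 related lists, with open circles for bounds and an orange bar at each list's median. The hypoxia-induced genes have a median of 0.86, and the medians of the other 4 lists lie between -0.46 and 0.20. NDRG1, whose family was chosen by its ratios, lies at 5.53, to the right of every listed gene.

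Of the kinases that phosphorylate NDRG1 and the complex above them, 2 of 11 measured members were higher by at least 1.5-fold and 3 were lower. The median was -0.17, but it was 0.30 with each gene at the mean of its probe sets and 0.41 when probe sets marked for shared sequence were left out. Under spike-in scaling it was -1.09, with 1 of 11 members higher and 8 lower by 1.5-fold. SGK1, the kinase whose sites mark active signalling on NDRG1 protein, had signals of 583 and 1714 and was thus 2.94-fold higher, with a single probe set. RICTOR, a subunit of mTORC2, which activates SGK1, had signals of 1254 and 432 and was 2.91-fold lower, with its 3 measured probe sets all lower. MLST8, another mTORC2 subunit, was 2.48-fold lower. AKT2, a kinase related to SGK1, was at least 6.59-fold lower on its brightest probe set, at 741 and 86.7, while another of its probe sets had a log2 ratio of 0.47.

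Of the reported partners and pathways of NDRG proteins, 5 of 15 measured genes were higher by at least 1.5-fold and 3 were lower. The median of 0.20 was -0.058 when probe sets marked for shared sequence were left out and -0.76 under spike-in scaling. CD82, a tetraspanin that suppresses metastasis, had signals of 73.4 and 549 and was at least 4.89-fold higher. ATF3, a stress factor, was 5.88-fold higher at 506 and 2974, with a log2 ratio of -0.14 on its other measured probe set. PPM1A, a phosphatase tied to NDRG2, was 7.73-fold higher at 2324 and 17977. Its 6 measured probe sets were all higher, with log2 ratios from 0.34 to 3.43. BMP4, a growth factor, was 5.29-fold lower at 11024 and 2085.

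Among 23 measured genes with an alpha/beta hydrolase fold like that of NDRG1, 5 were higher by at least 1.5-fold and 8 were lower. Their median was -0.46, and -0.043 when probe sets marked for shared sequence were left out. Under spike-in scaling it was -1.38, with 2 of 23 members higher and 15 lower by 1.5-fold. ABHD15 had the largest ratio and was 6.45-fold higher, at 527 and 3402. ABHD18 was 3.28-fold and ABHD17C, a depalmitoylase, 2.70-fold higher, while ABHD10, a mitochondrial thioesterase, was 3.12-fold lower.

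The genes nearest to NDRG1 in log2 ratio, among those with both signals above the floor, were ARG2, the mitochondrial arginase, at 5.50, RNF144B, a ubiquitin ligase, at 5.49, and PRR9 at 5.46. ARG2 and RNF144B had smaller ratios on other probe sets, down to 3.43 and 2.18, while PRR9, like NDRG1, had 1 measured probe set. The 3 nearest to NDRG3, taken at its brightest probe set, were PRPF31, BRWD3 and SEH1L, each at -0.27. The other NDRG3 probe sets, at -1.53 and -1.84, were not near these genes. Likeness here rests on 1 ratio from 2 arrays.

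Promoter sequence was read from RefSeq (GRCh38.p14), in which NDRG2 and NDRG4 have 9 windows, 1 for each annotated start. NDRG1 and NDRG3 have no entry in the table used here. The 250 bases before each start were searched on both strands for ACGTG, the core of the element that HIF binds, and for CACGTG, the E-box of MYC and its relatives, which contains ACGTG. Neither was found in the 9 NDRG windows, which are not all separate sequence, since some NDRG2 windows overlap. Over all 35116 windows 18.5% held ACGTG and 6.34% held CACGTG, and in the hypoxia-induced list 19 of 34 windows (55.9%) held ACGTG. The most GC-rich window of NDRG2 and of NDRG4 is printed here with windows of DDIT4 and PFKFB3, to set family promoters without the core beside promoters picked because they hold it. The ADM window and another PFKFB3 window do not hold it. Each runs 5′ to 3′, with the motifs in capitals.
NDRG2, chr14:21025062-21025311, minus strand: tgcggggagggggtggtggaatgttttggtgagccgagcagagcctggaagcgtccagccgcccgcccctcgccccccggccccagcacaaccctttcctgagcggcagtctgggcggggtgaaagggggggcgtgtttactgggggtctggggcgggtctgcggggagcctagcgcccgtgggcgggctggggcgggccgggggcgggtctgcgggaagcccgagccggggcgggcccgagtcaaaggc
NDRG4, chr16:58463465-58463714, plus strand: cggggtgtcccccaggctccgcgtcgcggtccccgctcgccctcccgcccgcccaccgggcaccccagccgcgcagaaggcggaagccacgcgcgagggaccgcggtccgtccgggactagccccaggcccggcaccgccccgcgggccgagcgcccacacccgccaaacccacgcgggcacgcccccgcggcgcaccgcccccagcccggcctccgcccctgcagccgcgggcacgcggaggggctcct
DDIT4, chr10:72273674-72273923, plus strand: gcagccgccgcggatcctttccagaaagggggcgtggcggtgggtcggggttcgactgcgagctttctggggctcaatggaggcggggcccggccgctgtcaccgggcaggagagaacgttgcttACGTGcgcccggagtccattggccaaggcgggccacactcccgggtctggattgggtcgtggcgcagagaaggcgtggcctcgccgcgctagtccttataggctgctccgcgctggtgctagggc
PFKFB3, chr10:6202682-6202931, plus strand: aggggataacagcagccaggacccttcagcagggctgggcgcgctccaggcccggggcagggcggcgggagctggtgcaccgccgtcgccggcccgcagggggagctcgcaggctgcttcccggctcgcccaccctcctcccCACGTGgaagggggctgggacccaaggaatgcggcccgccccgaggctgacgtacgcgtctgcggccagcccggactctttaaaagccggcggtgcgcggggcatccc

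The NDRG2 window is 74.8% G and C, above 89.2% of all windows, and the NDRG4 window is 82.8%, above 98.7%, against a median of 58.0%. Each was picked as the most GC-rich of its gene, so these places are raised by the choice. The other windows ran from 61.2% to 73.6% for NDRG2 and from 60.8% to 72% for NDRG4. The DDIT4 window holds ACGTG once. The PFKFB3 window holds it at 2 overlapping positions on opposite strands, which together form 1 CACGTG. The lack of these letters in the NDRG2 and NDRG4 windows says nothing of other parts of these genes.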

How the data were processed

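Gene expression was measured on 2 arrays, 1 for DLD-1 cells with p53 off and 1 for cells with p53 on for 9 h, grouped by the labelled treatment. The intensity values deposited by the authors are linear MAS5 signals, per the submitters' processing notes. Their version is not stated there. Each array had been scaled to 1 target, since its mean signal, with 2% of probe sets trimmed at either end, was 500.1. No further normalization was made. The number of arrays, not a read depth, limits the precision.

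Controls made up 62 of the 54675 probe sets, while 41091 had 1 gene symbol, 1801 had several and 11721 had none. Names came from the platform annotation, updated by Entrez identifier, 41037 of which were in the GRCh38.p14 RefSeq table. A gene was taken at the probe set with the highest mean signal. The gene of p53 is not reported here. The members and lists were chosen with earlier results of these data known. By rule, the text names all NDRG probe sets, the 4 genes per list with the largest ratio in either direction, and the 3 genes nearest to NDRG1 and to NDRG3. P4HA1, HIF1A, MYCN and VEGFA lie outside this rule and are named after their values were seen. The ratio steps were run on simulated signals, with only increases planted and only in genes well above the floor. That run does not cover decreases or signals near the floor. Tools were Python 3.11.15 with pandas 2.3.3, numpy 2.4.6, statsmodels 0.14.6, scipy 1.17.1 and matplotlib 3.10.9.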

Additional observations from a re-analysis of the deposited data

Results flagged for a closer look

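Control probe sets enter no NDRG ratio as reported, and 3 of their values were higher on the p53 on array than on the p53 off array. For beta-actin the ratio of 3' to 5' signal was 7.29 there, against 1.37 with p53 off. For GAPDH it was 1.77, against 0.97. Hybridization spike-ins had a median ratio of 1.89 between the arrays, and single probe sets ran from 1.47 to 2.59. Scaling to the spike-ins gave log2 ratios of 4.61 for NDRG1 and -1.19 for NDRG3, in place of 5.53 and -0.27. The part of the 3' to 5' difference in the NDRG ratios was not tested. Outlying samples could not be sought with 1 array per condition.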

How the results depend on the processing

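The floor was moved to the 40th or 60th percentile, or replaced by a pseudocount of 1 or of the floor's own value. The arrays were centred on their median gene, quantile normalized, fitted by loess (span 0.3) or scaled to the spike-ins. Genes were taken at the mean of their measured probe sets, or without the probe sets marked for shared sequence (_x_at and _s_at). The last gave no NDRG value, because all 8 probe sets end in _s_at, and the floor at the 60th percentile gave none for NDRG2 and NDRG4. In the other alternatives NDRG1 stayed higher, at 4.61 to 5.58, and NDRG3 lower, at -1.22 to -0.13. NDRG3 was -1.22 as a mean of its probe sets, because the 2 dimmer ones then count. NDRG2 was -1.58 with a pseudocount of 1, because its p53 on signal then enters as it is. Scaling to the spike-ins lowers every p53 on signal by 1 factor. It gave 4.61 for NDRG1 and -1.19 for NDRG3. It gave medians of -1.09 for the kinases, -0.98 for the transcription regulators, -0.76 for the partners, -1.38 for the alpha/beta hydrolase genes and -0.11, a turned sign, for the hypoxia-induced genes, and it put 830 genes past 2-fold higher and 5868 past 2-fold lower. Without probe sets marked for shared sequence, 26.5% of 11053 measured genes were higher by at least 1.5-fold and 24.1% were lower. Beside this, 7 of 13 hypoxia-induced genes were higher and 1 was lower. Of the kinases 4 of 9 were higher and 2 lower, and of the regulators also 4 of 9 and 2. Among the partners 4 of 12 were higher and 2 lower. The alpha/beta hydrolase genes, at 5 of 19 higher and 4 lower, were near the share of all genes. No replicate could be left out. No paired analysis was possible because each condition has 1 array.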
